A study of Mus musculus with 24 samples.

Results

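Tubulin isotypes are the separate genes that encode α- and β-tubulin, and 9 of them were followed here across 4 diets in mouse IWAT, inguinal white adipose tissue, a fat pad that lies under the skin of the groin. The members were the 9 named genes Tuba1a, Tuba1b, Tuba1c, Tuba4a, Tubb2a, Tubb2b, Tubb4b, Tubb5 and Tubb6, found by gene symbol among the 16821 genes of the deposited table. All 9 passed the filter on low counts, as did 15176 genes in all. The set was selected on measured values: an earlier result of these data had placed Tuba1a among the larger falls under restriction on casein. The casein values are therefore given as a description and support nothing. Restriction on elemental amino acids shared no library with that comparison, and its p-values are printed. They are not free of the casein libraries, because the fit over all 24 libraries set the filter, scaling and estimate of spread.

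RNA came from 24 male C57BL6/J mice, 6 per diet with 1 library each, with no genetic change named in the labels, aged 4 months after 12 weeks on diet from the age of 5 weeks and a 4 h fast. The elemental control group received free amino acids with 0.86% methionine. The elemental MR group (MR, methionine restriction) received the same kind of diet with 0.17% methionine. The casein control group received pellets with casein protein and 0.86% methionine. In the oxidized casein MR group, oxidation had removed methionine from the casein, and methionine was added back to 0.17%. The casein pair therefore differed in casein oxidation as well as in methionine, and the share of each in a difference cannot be told apart. The series' design text names the liver, whereas its title, source label and extraction protocol name IWAT. Libraries held 7468336 to 19868913 counted reads.

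The fat label was checked against mature adipocyte markers. All 19 were counted in every library, and the group medians of Adipoq (the adipokine adiponectin) lay between 2297 and 3504 CPM (the usual count unit scaled to a common library size, here with library sizes adjusted by trimmed mean of M values, TMM). The pads also carried other tissue. A B cell list of 15 genes, none at 0 in every library but Blk, Cd79a, Fcer2a, Pax5 and Spib at 0 in at least 1, had a mean log2 CPM of 4.67 to 6.36 in 15 libraries and of -0.65 to 2.56 in the other 9. The 15 are called libraries with lymph node transcripts below: 4 elemental control, 5 elemental MR, 4 casein control and 2 oxidized casein MR. Skeletal muscle genes summed to 13809 CPM in 1 elemental control library and 6205 CPM in 1 elemental MR library, against at most 915 CPM in the others. Hepatocyte genes summed to 10215 CPM in 1 further elemental control library, against at most 1551 CPM elsewhere.

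Microtubules are hollow polymers of α/β-tubulin heterodimers that carry vesicles, organelles and, in fat cells, glucose transporter and lipid droplet traffic. Mammals encode both subunits by small gene families whose proteins are almost the same along the body and differ mostly in the acidic tail, where enzymes add or remove tyrosine, glutamate and other groups. Tubulin mRNA is also regulated by its own product, since free dimers trigger decay of the message as it is translated.

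The tails at which isotypes differ are written in the last codons of each message, shown here for 5 members because that is where the proteins differ most. Each line gives the last 60 coding bases 5′ to 3′ from GRCm38 with the GENCODE M21 annotation, with the last codon before the stop in capitals.
Tuba1c: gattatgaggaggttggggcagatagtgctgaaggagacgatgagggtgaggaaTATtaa
Tuba4a: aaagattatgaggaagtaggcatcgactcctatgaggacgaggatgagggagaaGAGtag
Tubb2a: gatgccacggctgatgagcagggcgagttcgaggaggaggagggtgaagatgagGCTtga
Tubb4b: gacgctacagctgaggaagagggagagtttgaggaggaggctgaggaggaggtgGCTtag
Tubb5: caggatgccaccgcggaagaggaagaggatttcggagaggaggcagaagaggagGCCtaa
Tuba1c ends in a tyrosine codon, the residue that the detyrosination cycle removes and restores. Tuba4a ends in a glutamate codon and so lacks an encoded tyrosine. The 3 β members shown end in an alanine codon.

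Near identity matters for counting. Tuba1a (chr15:98949837-98953703, minus strand) and Tuba1b (chr15:98931425-98934565, minus strand) lie 15271 bases apart in GRCm38 and share 98.3% of aligned coding bases. Tuba1c (chr15:99029891-99038110, plus strand) lies 76187 bases from Tuba1a and shares 97.1% of coding bases with it and 97.9% with Tuba1b. Tubb2a (chr13:34074274-34078007) and Tubb2b (chr13:34126748-34130466), both on the minus strand, lie 48740 bases apart and share 96.5%. The remaining members stand alone: Tuba4a at chr1:75214228-75219865, Tubb4b at chr2:25222160-25224702, Tubb5 at chr17:35833921-35838306, all on the minus strand, and Tubb6 on chromosome 18. Each chosen transcript has 4 exons.

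The libraries were made from the 3′ ends of mRNA with reads of 50 bases, so the last bases of each transcript matter most for telling genes apart. Of the 251 windows of 50 bases in the last 300 bases of each transcript, 54 of Tuba1a also occurred in another annotated gene, 167 of Tuba1b, 108 of Tuba1c, 41 of Tubb2a and 148 of Tubb4b, whereas none did for Tubb2b, Tubb5 or Tubb6. All 251 windows of Tuba4a lay in Stk16, a neighbouring gene whose annotation overlaps it. Reads of the Tuba1 genes also match several annotated pseudogenes, and Tubb4b overlaps Fam166a. How such reads were assigned, and whether strand was used, is not given in the sources used here, so levels of Tuba1a, Tuba1b, Tuba1c, Tuba4a, Tubb2a and Tubb4b are uncertain to that extent. Along the coding sequence 93.9% of Tuba1a windows were shared, against 0.0778% of those of Tubb5.

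Because a 3′ library gives about 1 read per message whatever its length, levels of different genes were compared on the CPM scale without a length correction. Over the 24 libraries Tuba1b was the most abundant member, with a mean of 562 CPM ± 218 (SD, n = 24). Tuba1a followed at 370 CPM ± 381, and Tubb5 at 188 CPM ± 43.6. Tuba1b and Tuba1a, the neighbours at the top of this order, overlapped within their spread, and Tuba1a had the widest spread of the 9, with a coefficient of variation of 103% against 16.9% for Tubb4b, the narrowest. The next 3 were within their spread of each other, Tuba4a at 57.9 CPM ± 20.3, Tubb4b at 53.9 CPM ± 9.12 and Tuba1c at 44.3 CPM ± 14.2. Tubb2a (20.9 CPM ± 9.38), Tubb2b (12.6 CPM ± 4.51) and Tubb6 (11.1 CPM ± 4.48) were the scarcest. Of α and β isotypes known from other tissues, Tuba8, Tubb4a and the non-dimer tubulins Tubg1, Tubg2, Tubd1 and Tube1 were in the table outside the member set, and 5 of these 6 passed the filter.

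**Figure D1:**
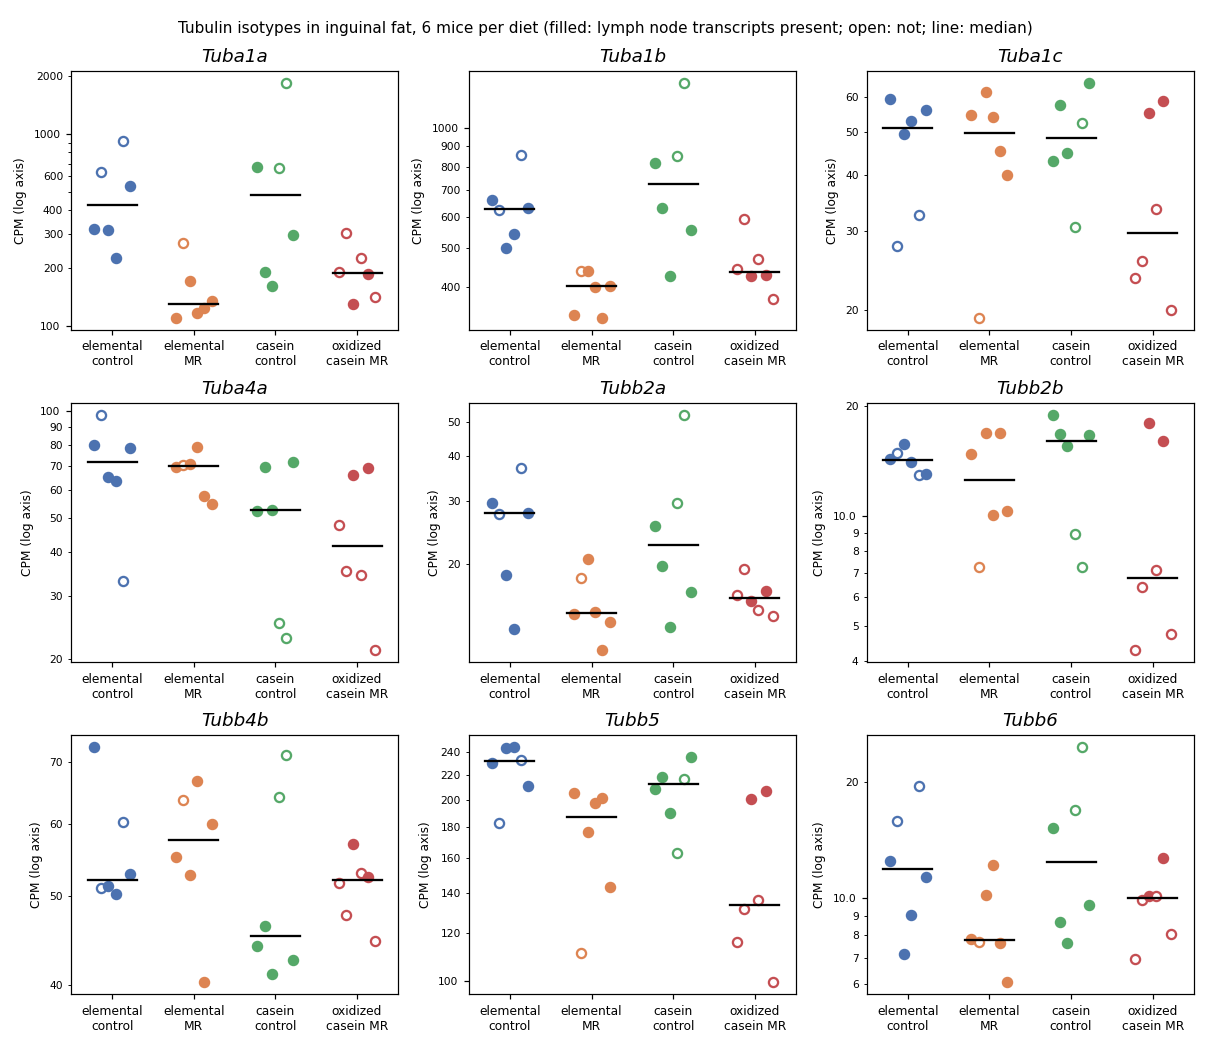
CPM of each tubulin isotype (log axis) in each of the 24 libraries, grouped by diet, with the group median as a line. Filled points are libraries with lymph node transcripts and open points those without. Tuba1b of the elemental MR libraries (335 to 440 CPM) lies below every elemental control (502 to 857 CPM), and 1 casein control stands at 1844 CPM of Tuba1a.

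On elemental amino acids the restricted mice had lower Tuba1a and Tuba1b, but 0 of 9 members passed an adjusted p of 0.05 in edgeR, beside 0.244% of all genes tested. Tuba1a, the isotype known for high levels in developing neurons, had a lowest, median and highest value of 226, 428 and 915 CPM in elemental controls and of 111, 130 and 272 CPM in elemental MR. 5 of the 6 restricted libraries lay below every control, and the remaining one, at 272 CPM, was above the lowest control only. The fitted log2 fold change was -1.66 ± 0.48 (SE, n = 6 per group; 3.16-fold lower), with an adjusted p of 0.163 in edgeR's quasi-likelihood test.

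Tuba1b, the ubiquitous α-tubulin of most cells, ran from 502 over a median of 628 to 857 CPM in elemental controls and from 335 over 403 to 440 CPM in elemental MR. All 6 restricted libraries were below all 6 controls, so the groups did not overlap. The share of all genes without overlap was not counted, for this or any other separation described here. The log2 fold change was -0.69 ± 0.19 (SE; 1.62-fold lower), with an adjusted p of 0.144 in edgeR.

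The other α members differed by less than their error on this diet. Tuba1c, a further broadly expressed isotype, had medians of 51.2 CPM in elemental controls and 49.7 CPM in elemental MR, within ranges of 27.8 to 59.3 and 19.2 to 61.3 CPM. Tuba4a, the isotype without an encoded tyrosine, had medians of 72 and 70.0 CPM, within ranges of 33.1 to 97.6 and 54.5 to 79.4 CPM. Their groups overlapped throughout, at log2 fold changes of -0.02 ± 0.28 and -0.06 ± 0.29 (SE).

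Among the β members, Tubb2a, an isotype best known from neurons, ran from 13.1 over 27.7 to 37.0 CPM in elemental controls and from 11.5 over 14.6 to 20.7 CPM in elemental MR. 4 of the 6 restricted libraries sat between the 2 lowest controls, at 13.1 and 18.6 CPM, so the groups overlapped (log2 fold change -0.72 ± 0.26; adjusted p = 0.297, edgeR). Tubb5, the main β-tubulin of dividing cells and the most abundant β member here, ran from 183 over 232 to 245 CPM in controls and from 111 over 187 to 205 CPM in restricted mice. 3 of 6 restricted libraries were below every control (log2 fold change -0.38 ± 0.17; adjusted p = 0.429, edgeR). Tubb6, an isotype induced in regenerating muscle, had medians of 11.9 and 7.76 CPM and ranges of 7.15 to 19.4 and 6.04 to 12.2 CPM (log2 fold change -0.54 ± 0.27; adjusted p = 0.505, edgeR).

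The 2 remaining β members showed the smallest shifts. Tubb2b, the close paralogue of Tubb2a, was 13.0 to 15.7 CPM in elemental controls and spread from 7.26 to 16.9 CPM in elemental MR. 2 restricted libraries were above every control and 3 below every control, at a log2 fold change of -0.16 ± 0.31. Tubb4b, an isotype found in cilia and many other cells, had means of 56.4 CPM ± 8.81 and 56.4 CPM ± 9.5 (SD) and a log2 fold change of 0.00 ± 0.14 (SE).

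The 0.244% of genes called came to 37 of 15176. At an unadjusted p under 0.05 there were 4 members (Tuba1a, Tuba1b, Tubb2a and Tubb5) and 1542 of all genes. DESeq2 passed 2 members, Tuba1a (adjusted p = 0.015) and Tuba1b (adjusted p = 0.0279), and limma voom passed 0. Over 34 alternatives the adjusted p of Tuba1a ran from 0.015 to 0.811 and that of Tuba1b from 0.0279 to 0.789, and both fold changes were below 0 in all 34. Of the 9 members 8 had a log2 fold change below 0, with a median of -0.38, beside a median of -0.02 over all genes, of which 53.9% were below 0.

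On casein, Tuba1a and Tuba1b were the members furthest below control. This comparison led to the choice of the members, so its adjusted p-values and calls are descriptions and support nothing. Tuba1a ran from 161 over 480 to 1844 CPM in casein controls and from 131 over 189 to 304 CPM in oxidized casein MR. The groups overlapped, with 2 restricted libraries below every control, and 1 control at 1844 CPM stood far above the next at 673 CPM. The log2 fold change was -1.70 ± 0.48 (SE; 3.24-fold lower, adjusted p = 0.0491 in edgeR), and without that control it was -1.01 with an adjusted p of 0.141, within a range of 0.00339 to 0.528 over the alternatives.

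Tuba1b ran from 426 over 722 to 1297 CPM in casein controls and from 373 over 437 to 594 CPM in oxidized casein MR. Only 1 restricted library was below every control, and the 1297 CPM came from the same control mouse as the highest Tuba1a. The log2 fold change was -0.74 ± 0.19 (SE; 1.67-fold lower, adjusted p = 0.0301 in edgeR). Without that control it was -0.52 with an adjusted p of 0.0669, within a range of 0.00196 to 0.392 over the alternatives.

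The other 7 members did not pass. Tubb2a had medians of 22.6 CPM in casein controls and 16.1 CPM in oxidized casein MR, the latter within 14.4 to 19.3 CPM, and a log2 fold change of -0.69 ± 0.26 (-0.37 without the control with 1844 CPM of Tuba1a). Tubb2b was 7.25 to 19.0 CPM in controls and 4.29 to 18 CPM in restricted mice, with 4 restricted libraries below every control (log2 fold change -0.56 ± 0.31). Tubb5 was 163 to 235 CPM against 99.4 to 207 CPM, again with 4 of 6 below every control (-0.47 ± 0.17). The log2 fold changes of the other 4 were -0.52 for Tubb6, -0.43 for Tuba1c, -0.10 for Tuba4a and -0.02 for Tubb4b. Without the control with 1844 CPM of Tuba1a, that of Tubb6 was -0.27. Lymph node transcripts were in 4 casein control and 2 oxidized casein MR libraries. With only those libraries the log2 fold changes were -0.02 for Tubb2b, -0.08 for Tubb5 and 0.09 for Tuba1c, and with a lymph node term -0.35, -0.37 and -0.26.

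Of the 9 members, 2 were called on casein, both lower, beside 3.82% of all genes (579 of 15176, of which 70 were lower). The 2 calls are a description, since the members were chosen from this comparison. The members' median log2 fold change was -0.52, and all 9 were below 0, beside a median of -0.06 over all genes, of which 58.1% were below 0. Signs turned under other settings for Tuba4a and Tubb4b, each below 0 in 28 of 34 alternatives, and for Tuba1c and Tubb6, each in 33. The number called was 0 without casein control replicates 1, 4 or 5, or without oxidized casein MR replicates 1 or 6. It was also 0 when only the casein groups entered the fit or when only libraries with lymph node transcripts did, and 4 in libraries without them.

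**Figure D2:**
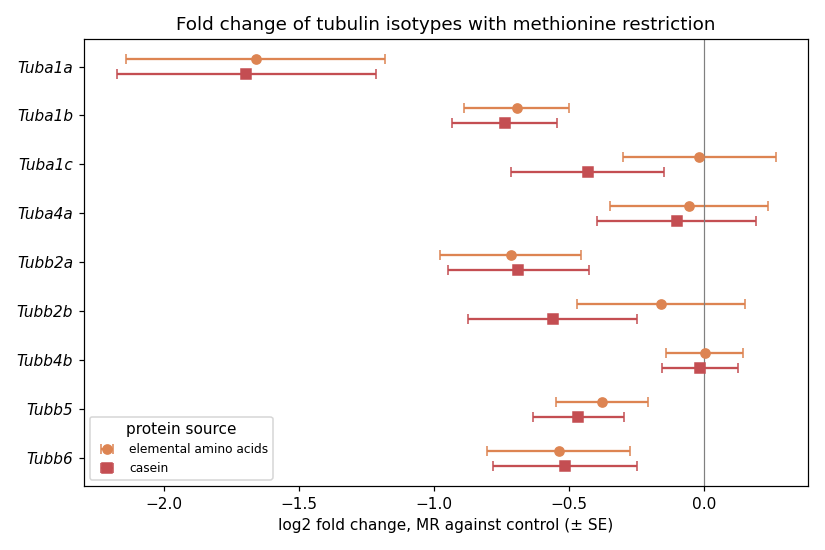
Log2 fold change with methionine restriction (x axis, ± SE from the edgeR fit) for each isotype, with circles for elemental amino acids and squares for casein, 6 mice per group. Tuba1a lies at -1.66 and -1.70, Tuba1b at -0.69 and -0.74, and Tubb4b at 0.00 and -0.02.

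The 2 protein sources were also set against each other. For the difference between the restriction effects 0 of 9 members were called in edgeR, 0 at an unadjusted p under 0.05, and 0 in DESeq2 and in voom, with 0% of all genes called. The difference for Tuba1a was -0.04 ± 0.66 (SE, log2) and for Tuba1b -0.05 ± 0.27, so a difference of the size of its SE, in either direction, was not detectable. Between the 2 control diets 0 of 9 members were called and 0 at an unadjusted p under 0.05 in edgeR, and 0 in DESeq2 and voom, beside 0.659% of all genes. Tuba4a had the largest shift, with medians of 72 CPM in elemental controls and 52.5 CPM in casein controls (log2 fold change -0.51 ± 0.30). Between the 2 restricted diets 0 of 9 were called and 0 at an unadjusted p under 0.05 in edgeR, and 0 in DESeq2 and voom, beside 0% of all genes, and Tuba4a again had the largest shift at -0.55 ± 0.30. These 3 comparisons share libraries with the casein comparison and are descriptions.

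Isotype composition moved with the levels. In elemental controls Tuba1a made up 37.5% ± 9.69 (SD, n = 6) of the reads of the 4 α members, from 25.5% to 49.8%, and Tuba1b made up 52.4% ± 6.74. In elemental MR the Tuba1a share was 23.0% ± 5.70, from 18% to 33.9%, and the Tuba1b share 59.7% ± 2.93. Tuba4a, whose level hardly differed, took 6.03% ± 2.11 of α reads in elemental controls and 10.2% ± 1.58 in elemental MR, and its shares did not overlap between the 2 groups (1.80% to 7.16% against 8.61% to 12.2%). On casein the Tuba1a share was 36.0% ± 14 in controls and 26.4% ± 4.31 in restricted mice, with overlapping ranges. Shares add up to 100%, so 1 isotype's share depends on the others' levels, and they were not tested.

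The summed α members stood at 1244 CPM ± 351 in elemental controls, 662 CPM ± 93.6 in elemental MR, 1498 CPM ± 915 in casein controls and 735 CPM ± 132 in oxidized casein MR (SD, n = 6). The 6 elemental MR values, 563 to 802 CPM, were all below the 6 elemental controls, 886 to 1838 CPM. The summed β members moved less, at 333 CPM ± 26.6, 266 CPM ± 37.1, 311 CPM ± 36.1 and 235 CPM ± 55.9 in the same order. The ratio of α to β reads was 3.75 ± 1.04, 2.56 ± 0.71, 4.66 ± 2.29 and 3.25 ± 0.82. Among β members Tubb5 kept the largest share in every diet, between 62.4% and 67.3% on average, with Tubb4b next at 16.6% to 22.5%.

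**Figure D3:**
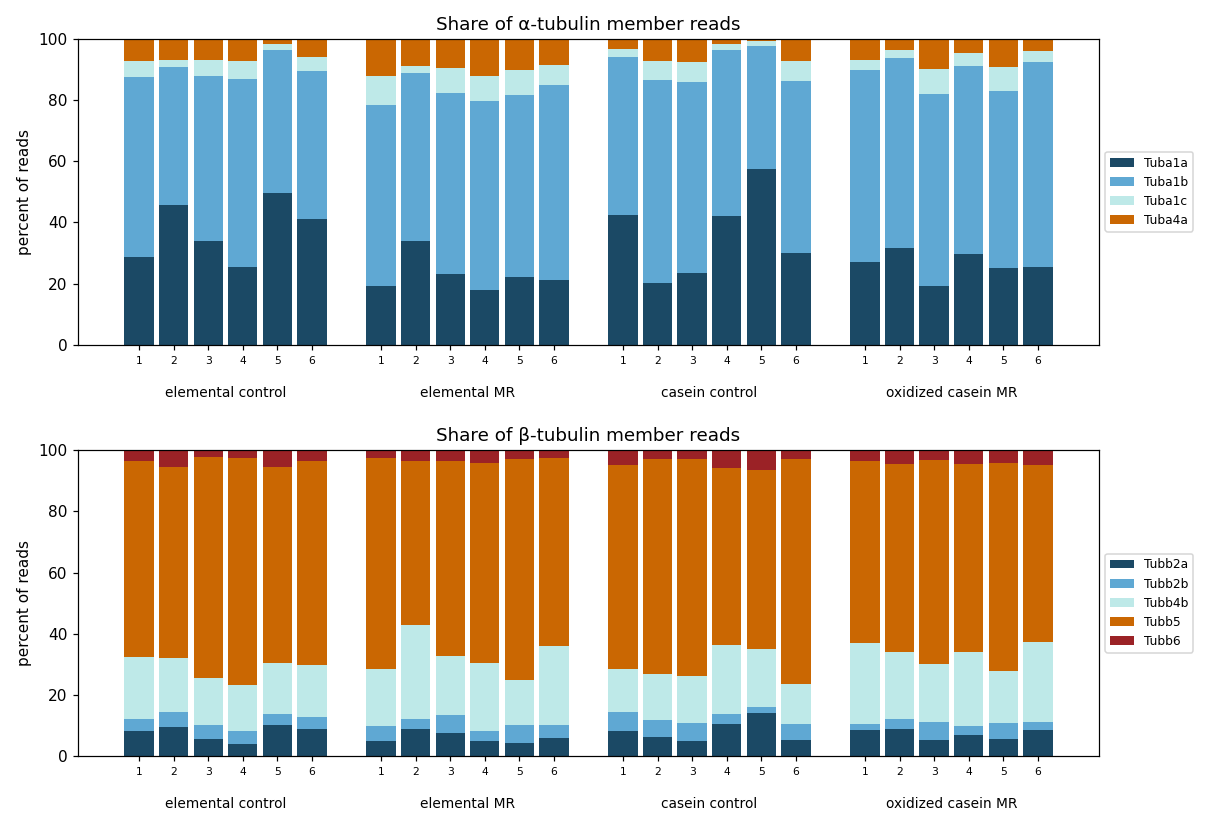
Percent of α member reads (top) and β member reads (bottom) from each isotype, 1 stacked bar per library, ordered by diet and replicate number. Tuba1a takes 57.3% of α reads in casein control 5, its highest share, and 18% in elemental MR 4, its lowest, while Tubb5 holds over 53% of β reads in every library.

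Within a diet the members fell into different company. After the mean of each diet was subtracted from log2 CPM, Tuba1a, Tuba1b, Tubb2a and Tubb6 varied together over the 24 libraries, with Pearson r of 0.90 for Tuba1a with Tuba1b, 0.87 for Tuba1a with Tubb2a, 0.90 for Tuba1b with Tubb2a and 0.75 to 0.80 for Tubb6 with these 3. Among the 15 libraries with lymph node transcripts the first 3 values were 0.74, 0.70 and 0.80, and among the 9 without they were 0.96, 0.94 and 0.92. Tuba1c, Tubb5 and Tubb2b formed the other company, with r of 0.89 for Tuba1c with Tubb5 and 0.77 for Tubb2b with Tubb5. With and without lymph node transcripts these were 0.50 and 0.91, and 0.42 and 0.22, and for Tuba1c with Tubb2b 0.15 and 0.25, so that Tubb2b left this company within each set. These values are descriptions: all members of a library share its depth, scaling and tissue makeup, and the paralogues share sequence. The close pair Tubb2a and Tubb2b had r = -0.33, and Tuba1a and Tuba1c r = -0.38. Within the 9 libraries without lymph node transcripts the 2 companies were not apart, as Tuba1a had r of 0.91 with Tubb5 and 0.83 with Tuba1c.

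Lymph node content accompanied this split. Tuba1c had a median of 54.5 CPM in the 15 libraries with lymph node transcripts and 27.8 CPM in the 9 without. Tubb5 had 207 against 136 CPM, and Tubb2b 15.7 against 7.25 CPM. Tuba4a, which was in neither company, was also higher with lymph node transcripts, at 68.9 against 34.5 CPM. Tuba1a ran the other way, at 186 against 304 CPM, as did Tuba1b at 439 against 594 CPM. Tubb2a had 16.7 against 19.3 CPM, Tubb4b 52.4 against 52.9 CPM and Tubb6 9.57 against 10.1 CPM. Within diets the B cell score (the mean log2 CPM of the 15 genes) had r of 0.81 with Tuba1c, 0.81 with Tubb2b and 0.73 with Tubb5. It had r of 0.57 with Tuba4a and of -0.69 with Tuba1a. In whole tissue, fewer cells of a type and less RNA per cell cannot be told apart.

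The levels of Tuba1a by diet were also set out within each set of libraries. With lymph node transcripts, 4 elemental controls held 226 to 535 CPM and 5 elemental MR libraries 111 to 172 CPM, with no overlap. Without them, 2 elemental controls held 635 and 915 CPM and the only elemental MR library 272 CPM. The log2 fold change was -1.40 ± 0.38 in the first set (adjusted p = 0.263 in edgeR), and with 1 restricted library the second set gives no check of its spread. A model with a lymph node term gave -1.42 ± 0.36 (adjusted p = 0.0578). On casein, 4 controls with lymph node transcripts held 161 to 673 CPM and 2 restricted libraries 131 and 186 CPM. Without them, 2 casein controls held 663 and 1844 CPM and 4 restricted libraries 142 to 304 CPM. Tuba1b behaved likewise on elemental diets, at 502 to 662 CPM in the 4 controls against 335 to 439 CPM in the 5 restricted libraries with lymph node transcripts.

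**Figure D4:**
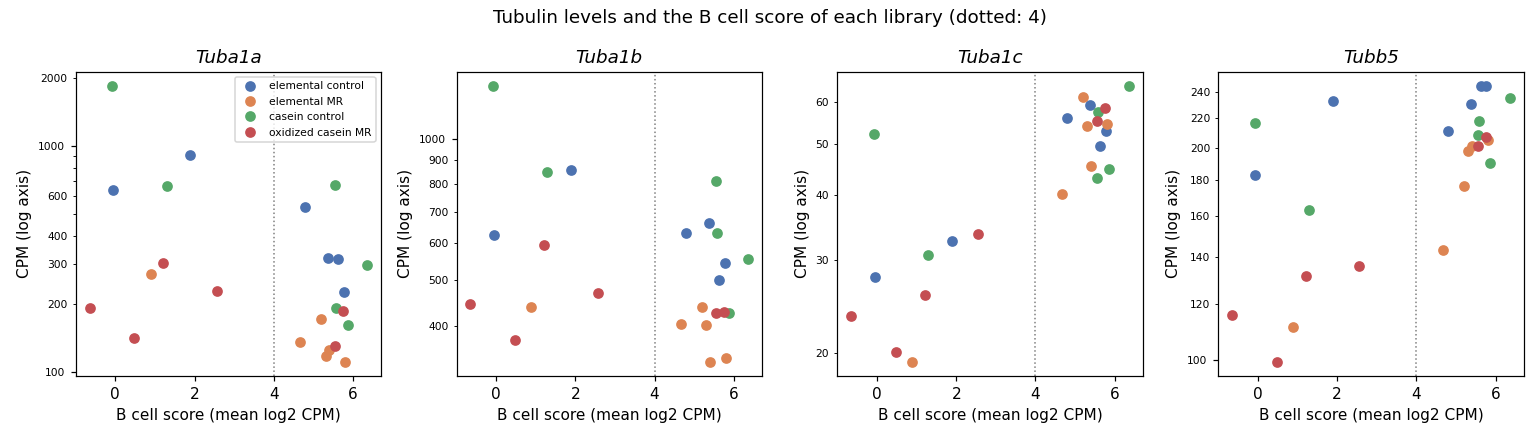
CPM (log axis) of 4 isotypes against the B cell score of each library (mean log2 CPM of 15 genes), coloured by diet, with a dotted line at the score of 4 that separates the 15 libraries with lymph node transcripts from the 9 without. Tuba1c has medians of 54.5 and 27.8 CPM to the right and left of the line, whereas Tuba1a has 186 and 304 CPM.

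Other cell type scores were set beside the members in the same way. The mature adipocyte score had r of 0.78 with Tuba1a, 0.72 with Tuba1b and 0.71 with Tubb2a, and of -0.69 with Tuba1c and -0.75 with Tuba4a. The adipose progenitor score (17 genes, such as Pdgfra, Cd34 and Dpp4) had r of 0.76 with Tubb6, 0.75 with Tuba1b and 0.71 with Tuba1a. The proliferation score (22 genes, such as Mki67, Top2a and Cdk1) had r of 0.85 with Tubb5, 0.84 with Tubb2b and 0.80 with Tuba1c. Progenitor genes had a summed level of 4175 to 10424 CPM in elemental controls and 3004 to 4933 CPM in elemental MR. Of these, 16 of 17 had a log2 fold change below 0, beside 53.9% of all genes. Only Igfbp4 was called lower, beside 0.244% of all genes called. On casein 15 of 17 were below 0, beside 58.1% of all genes, and 1 was called lower, beside 3.82% called. None of the 17 was at 0 in any library, and the part of progenitor content in the Tuba1a and Tuba1b values was not tested. Macrophage genes summed to 717 to 1308 CPM in elemental controls and 332 to 1159 CPM in elemental MR, with Cd5l and Trem2 at 0 in at least 1 library. Of the macrophage genes 16 of 17 were below 0 and 0 called, beside 53.9% and 0.244% of all genes. On casein 16 of 17 macrophage genes were also below 0, beside 58.1% of all genes, and 1 was called lower, beside 3.82% called. In the elemental groups the other lists ran as follows. Mature adipocyte genes summed to 48666 to 78368 and 46832 to 74040 CPM in the same groups. Of these genes 10 of 19 were below 0 and 0 called, beside 53.9% and 0.244% of all genes. On casein they summed to 38858 to 94065 CPM in controls and 51236 to 103380 CPM in restricted mice. There 13 of 19 were above 0, with a median log2 fold change of 0.31, whereas 58.1% of all genes were below 0. Of the 19, 5 were called higher, beside 3.82% of all genes called. Thermogenic adipocyte genes (11, such as Ucp1, Cidea and Elovl3) stood higher with restriction, at 455 to 3851 CPM in elemental controls and 3506 to 6672 CPM in elemental MR. On elemental diets 10 of 11 were above 0, with a median log2 fold change of 1.03, whereas 53.9% of all genes were below 0. Of the 11, 3 were called higher, beside 0.244% of all genes called. On casein 11 of 11 were above 0, whereas 58.1% of all genes were below 0, and 6 were called higher, beside 3.82% called. Their summed level there was 332 to 1469 CPM in controls and 1081 to 4580 CPM in restricted mice. Within diets the thermogenic score had r of -0.53 with Tuba1a. Endothelial genes summed to 580 to 921 CPM in elemental controls and 522 to 756 CPM in elemental MR, and smooth muscle and pericyte genes to 368 to 922 and 323 to 737 CPM. On elemental diets 12 of 12 and 9 of 9 were below 0, with medians of -0.20 and -0.32, beside 53.9% of all genes. On casein 10 of 12 and 7 of 9 were below 0, beside 58.1% of all genes. In both comparisons 0 were called in either list, beside 0.244% and 3.82% of all genes. None of the genes of these 3 lists was at 0 in any library, and their part in the tubulin values was not tested.

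**Figure D5:**
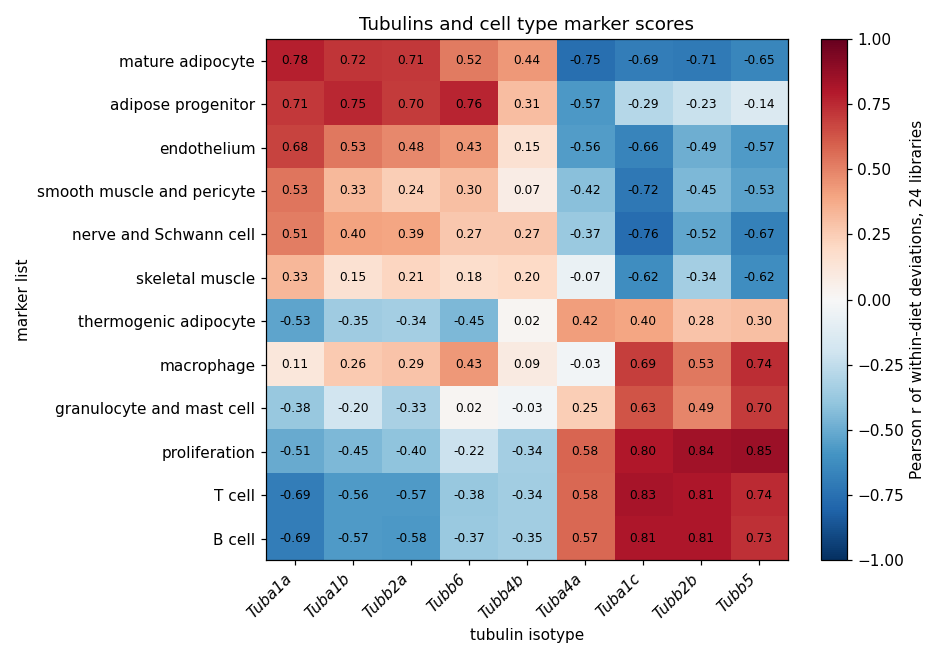
Pearson r over 24 libraries, after subtracting each diet's mean, between each isotype (columns) and the mean log2 CPM of cell type marker lists (rows), from -1 in blue to 1 in red. The hepatocyte and ductal epithelium lists are not drawn. Tuba1a has r of 0.78 with the mature adipocyte list and -0.69 with the B cell list, and Tubb5 has -0.65 and 0.73. No p-value is given, since the libraries share their makeup and depth.

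The genes most like Tuba1a were ranked by the same r among the 11033 genes whose log2 CPM averaged 2 or more. First was the transcript ENSMUSG00000099349, which a name table gives as 1700047G03Rik, with r = 0.97 (0.95 and 0.96 in libraries with and without lymph node transcripts). Next were Anxa6, an annexin that binds membranes (0.96), Vim, the intermediate filament vimentin (0.95), Olfm1, a secreted olfactomedin protein (0.95), Nkd1, an inhibitor of Wnt signalling (0.95), and S100a6, a calcium-binding protein (0.94). Ephb2, an ephrin receptor, and Slc5a7, the choline transporter, closed the 8 at 0.94 each. In elemental controls and elemental MR, Vim stood at 1130 CPM ± 186 and 793 CPM ± 131 (SD, n = 6; log2 fold change -0.51 ± 0.18 SE, adjusted p = 0.277 in edgeR).

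The other members had different neighbours. Tuba1b was nearest to Tfg, Dgat2 (an enzyme of triglyceride synthesis) and Trim67, with r of 0.92, 0.92 and 0.91. Tubb2a was nearest to Calm3 (a calmodulin gene), Cd59a and Yipf5, at 0.92, 0.91 and 0.91, and Tubb6 to Pcolce2, Ms4a4d and Rab11fip5, at 0.85, 0.84 and 0.82. Tubb5 was nearest to Lyz2 (lysozyme of myeloid cells), Actb (β-actin) and Rap1b, at 0.94, 0.94 and 0.93. Tuba1c was nearest to Shkbp1, Pdlim2 and Phf11b, at 0.96, 0.95 and 0.94, and Tubb2b to Cd24a, Fyn and Prkcq, at 0.88 each, but at 0.49, 0.64 and 0.34 where lymph node transcripts were present (15 libraries). Tuba4a was nearest to Atp1b1, Prkcq and Sorl1, at 0.92, 0.84 and 0.83, but within the 15 libraries with lymph node transcripts these were 0.32, 0.24 and 0.61. Tubb4b was nearest to Mmab, Smap1 and Atf5, at 0.83, 0.82 and 0.82.

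Since Tuba1a, Tuba1b and Tubb2a moved most closely together, their promoter windows were taken from RefSeq (GRCm38.p6). The gene models of GENCODE M21 begin further upstream for Tuba1a and Tuba1b, so that 202 and 175 of the 250 bases before the RefSeq start lie inside those genes, and the 250 bases are shown for Tubb2a alone, 5′ to 3′ along the gene. Capitals mark TATAA (the TATA box core), CCAAT and GGGCGG (the GC box) on either strand, so that CCGCCC is the GC box on the other strand. The window is chr13:34078009-34078258 on the minus strand.
Tubb2a: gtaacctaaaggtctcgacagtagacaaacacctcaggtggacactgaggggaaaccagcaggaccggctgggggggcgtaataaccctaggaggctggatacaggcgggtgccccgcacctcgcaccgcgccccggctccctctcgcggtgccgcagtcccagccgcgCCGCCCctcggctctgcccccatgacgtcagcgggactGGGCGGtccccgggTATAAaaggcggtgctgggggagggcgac
In windows reaching 50 bases past the start, Tuba1a held 1 TATAA, 1 CCAAT and 1 GGGCGG, Tuba1b 2 GGGCGG, and Tubb2a 1 TATAA and 2 GGGCGG, counted on both strands with no overlaps between motifs. Of 32851 promoters of the same length, 24.9% held TATAA, 37.4% CCAAT and 35.7% GGGCGG. RefSeq entries were matched for 7 of the 9 members, not Tubb2b or Tubb6. The GC box was in 6 of these 7 windows, also those of Tuba4a, Tubb4b and Tubb5 outside the trio. For Tuba4a all 250 bases before the RefSeq start lie inside its GENCODE gene model. Its window, like those of Tuba1a and Tuba1b, may therefore not be the promoter of that model. Tubb4b, with means of 51.0 to 56.4 CPM in the 4 diets, held 5 CCAAT in its window.

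Genes that fold, modify and use tubulin were followed from lists chosen with earlier results known. The 24 folding and assembly genes (prefoldin, the CCT chaperonin and the tubulin cofactors) had 0 called on elemental diets and 1 on casein, where 3.82% of all genes were called, so that the share is near that background. It was Arl2, a GTPase that works with the cofactors. Arl2 rose from 33.8 CPM ± 6.44 to 47.7 CPM ± 6.28 (SD, n = 6; adjusted p = 0.0257 in edgeR). Of 17 tested modifying enzymes (tyrosine ligases, glutamylases, acetylation and their reversal) 0 were called in either comparison, as were 0 of 38 motor genes and 0 of 11 genes of the γ-tubulin ring complex, which nucleates microtubules. Their median log2 fold changes on elemental diets were 0.03, -0.06 and -0.05, beside -0.02 over all genes.

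Of 35 microtubule-associated and severing genes 1 was called in each comparison, both higher, beside 0.244% and 3.82% of all genes. On elemental diets it was Tppp, a microtubule-bundling protein, at 11.6 CPM ± 1.66 in controls and 20.6 CPM ± 3.57 in restricted mice (log2 fold change 0.83, adjusted p = 0.0388 in edgeR). On casein it was Mapre3, a plus-end binding protein, at 16.7 CPM ± 3.96 and 26.0 CPM ± 4.72 (adjusted p = 0.0347 in edgeR). The list's medians were -0.13 and -0.20, beside -0.02 and -0.06 over all genes. Of the 35, 25 and 24 were below 0, beside 53.9% and 58.1% of all genes.

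Among the 5 other tubulins tested Tuba8, an α isotype known from muscle and testis, was the only one called, and on casein only, where 3.82% of all genes were called. It rose on casein from 3.24 CPM ± 2.41 to 10.3 CPM ± 3.25 (SD, n = 6; log2 fold change 1.68 ± 0.47 SE, adjusted p = 0.0435 in edgeR), and on elemental diets it stood at 6.96 CPM ± 4.48 and 13.8 CPM ± 5.36 (0.99 ± 0.45, adjusted p = 0.441). Skeletal muscle genes had log2 fold changes below 0 on elemental diets (12 of 12) and above 0 on casein (12 of 12). Of all genes 53.9% and 58.1% were below 0. The part of skeletal muscle in the Tuba8 values was not tested. Tubg1, the main γ-tubulin, stood at 33.4 CPM ± 6.85 and 34.4 CPM ± 5.94 in elemental controls and MR. Of 26 actin and vimentin cytoskeleton genes 0 were called on elemental diets and 2 on casein, Flna and Tpm4, both lower, beside 3.82% of all genes on casein. Flna, the actin crosslinker filamin A, fell from 130 CPM ± 13.5 to 82.8 CPM ± 12.2 (adjusted p = 0.00402 in edgeR), and Tpm4, a tropomyosin, from 191 CPM ± 48.1 to 127 CPM ± 16.5 (adjusted p = 0.025). The list had 22 of 26 genes below 0 in each comparison, beside 53.9% and 58.1% of all genes. Its medians were -0.12 and -0.41, beside -0.02 and -0.06 over all genes.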

How the data were processed

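Gene counts from 3′ mRNA libraries (1 per mouse, 50-base reads) were deposited by the authors as whole-number counts, and as a second table of normalized signal, which equals those counts divided by DESeq2's median-of-ratios size factors and supplied the gene symbols. The submitters' processing notes name DESeq2 1.18.1, R 3.4.3, GRCm38 and mm10. For the aligner, the counter and the use of strand, nothing is stated (not given in the sources used here). Samples were grouped by the diet in their labels. The counts were fitted with edgeR 4.0.16 in R 4.3.3: TMM scaling, filterByExpr (1645 genes removed, 15176 kept), 1 mean per diet over all 24 libraries, robust quasi-likelihood F tests, 2-sided, with Benjamini-Hochberg adjustment over all genes kept and a threshold of 0.05. SE is the size of the log2 fold change divided by the square root of F. DESeq2 1.42.0, limma voom 3.58.1, other filters and scaling, lymph node terms or subsets, and leaving out each library were alternatives. CPM uses TMM library sizes, and log2 CPM a prior count of 2. Totals of 7468336 to 19868913 reads set the precision, and the scarcest member averaged 11.1 CPM. The fit was tested on simulated counts. Named genes were all 9 members, the called genes of each list (at most 4), the 8 genes most like Tuba1a and the 3 most like each other member, and the first 3 genes of marker lists. The members, lists and rules were chosen with earlier results of these data known. Sequences were read with Biopython 1.88. The coding ends of 4 members are not reported here.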

Additional observations from a re-analysis of the deposited data

Results flagged for a closer look

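In casein control replicate 5, Tuba1a stood at 1844 CPM, and its gap to the next of the 6 casein controls, 673 CPM, was large for the range of that group by Dixon's test. This was 1 of 36 combinations of member and diet examined, and chance alone flags about 1 in 20 of them. The same library had the highest Tuba1b (1297 CPM), Tubb2a (52.3 CPM) and Tubb6 (24.6 CPM) of the 24, without passing that limit. It was 1 of the 9 libraries without lymph node transcripts. Without it, the log2 fold change of Tuba1a on casein was -1.01 (adjusted p = 0.141 in edgeR) in place of -1.70, within 0.00339 to 0.528 over the alternatives.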

How the results depend on the processing

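No paired analysis was possible because each library came from a different mouse and the replicate numbers only name the samples. On elemental diets the members called stayed at 0 when any library was left out and under every other alternative but DESeq2, with 2. All genes called there were 37, and 60 at a mean CPM of at least 5, 221 in DESeq2, 23 with only the groups compared, 166 with a lymph node term, 5 and 0 with only libraries with or without lymph node transcripts, 8 without the 2 libraries highest in Acta1, and from 7 (without elemental control 5) to 252 (without elemental control 1) when 1 library was left out. On casein the 2 members called became 1 without a filter and in limma voom, 0 with only the groups compared or only libraries with lymph node transcripts, 4 with only those without, and 0 to 2 when 1 library was left out. All genes called there were 579, and 927 in DESeq2, 339 with only the groups compared, 1120 with a lymph node term, 5 and 172 with and without lymph node transcripts, and from 316 (without casein control 6) to 825 (without casein control 5) when 1 library was left out. Between the control diets all genes called were 100, and 417 in DESeq2, 2 with only the groups compared, 313 with a lymph node term, 177 and 0 with and without lymph node transcripts, 170 without the 2 libraries highest in Acta1, and from 24 (without elemental control 3) to 202 (without elemental control 2) when 1 library was left out. DESeq2 called 2 genes for the difference and 12 between the restricted diets, where edgeR called 0 (0 to 1 with 1 library left out). Fitting only the groups compared was not run for the difference, which uses all 4. Signs changed on elemental diets for the 3 members nearest 0. Tubb4b was -0.0141 without a filter, -0.00169 at a mean CPM of at least 5, -0.0030 in voom, -0.043 in libraries with lymph node transcripts, -0.088 without the libraries highest in Acta1, and -0.0433 to 0.069 with 1 library left out. Tuba4a was 0.00863 in voom, 0.156 without lymph node transcripts, 0.0261 without the libraries highest in Acta1 and -0.201 to 0.0547 with 1 library left out, and Tuba1c was 0.00559 without the libraries highest in Acta1 and -0.147 to 0.137 with 1 library left out. On casein the highest values were 0.587 for Tuba4a, 0.31 for Tubb4b, 0.132 for Tubb6 and 0.0937 for Tuba1c, all in lymph node subsets. The cause of these changes was not tested, beyond the smaller number of libraries in the subsets.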

Other observations

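Lep, the fat hormone leptin, was looked at after its values were seen, because it ranked 9 of 11033 genes in likeness to Tuba1a. Over the 24 libraries, after subtracting diet means, r was 0.93, with 0.90 in the 15 libraries with lymph node transcripts and 0.87 in the 9 without. The casein control with 1844 CPM of Tuba1a also had the highest Lep, at 2195 CPM, and the next casein control held 499 CPM. In elemental controls Lep ran from 145 to 810 CPM and in elemental MR from 36.2 to 235 CPM, with 5 of the 6 restricted libraries at 101 CPM or less. Lep is a gene of the mature adipocyte list, so its values enter that list's score.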
